A study of Xenopus tropicalis with 44 samples.

Results

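The nuclear genes for the proteins of the mitochondrial ribosome were followed through early development of the western clawed frog Xenopus tropicalis. They were taken as the genes whose symbol begins with mrpl or mrps and a number, which gave 77 of the 28778 genes counted. By their names 48 belong to the large subunit (mrpl) and 29 to the small subunit (mrps), although in mammals the proteins of mrps18a and mrps30 sit in the large subunit. Whole embryos were sequenced in 44 libraries of 22 groups, with 2 libraries in each. Untreated wild-type (WT) embryos were collected at stages 3, 4, 5, 6, 7, 8, 9, 10 and 13, where stages 3, 4 and 5 are embryos of 4, 8 and 16 cells by their titles. Embryos injected with a morpholino against E2F1 (E2F1 MO) covered stages 3 to 8, and embryos injected with that morpholino and E2F1 mRNA (E2F1 rescue) covered stages 6 to 8. At stages 7 and 8 there were also embryos injected with a morpholino against OTX1 (OTX1 MO) or with the morpholinos against E2F1 and OTX1 together (double MO). A morpholino is an antisense oligomer that blocks translation or splicing of its target RNA. E2F1 is known for its control of cell cycle genes, and OTX1 is a homeodomain protein known from forebrain and sense organ development. The labels give neither dose, nor the part of the transcript each morpholino binds, nor an embryo injected with a control oligomer, so each injected group was compared with uninjected WT embryos. By its title the series concerns the part that maternal E2F1 and OTX1 play in the first transcription of the zygote's genes.

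Mitochondria keep their own ribosome, which translates the few respiratory chain subunits encoded in mitochondrial DNA. Its ribosomal RNAs come from that DNA, but all of its proteins are encoded in the nucleus, made in the cytosol and imported. The frog egg carries a large maternal store of mitochondria and of messenger RNA, the embryo's own genome is transcribed in bulk from the midblastula onward, and mitochondrial DNA is replicated little until later development.

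Libraries held 9266510 to 37174300 counts, and all 77 genes passed the filter on low counts that left 16064 genes for testing. Levels are given in CPM (a gene's counts scaled to a common library total after TMM scaling), as 1 value per library or as mean ± SD over the 2 libraries of a group. Calls rest on edgeR's quasi-likelihood test, at an adjusted p under 0.05 over the 16064 genes. The leading genes of a comparison were picked among those whose libraries did not overlap between its groups. For them the lack of overlap is a condition of the choice and no further support. It was also common, holding for 25 to 72 of the 77 members by comparison. The share of all tested genes without overlap was not computed, so these counts do not set the members apart. Nothing in the labels ties the 2 libraries of a group to separate clutches, so the spread between them may be partly technical. Each p-value speaks only for these libraries. It sets a difference between groups against a spread estimated for the gene over all 22 groups together. Where the libraries of a group lie further apart than that spread, the p-value can be too small. In 3 groups the replicates stood further apart than in the others (chi-square per gene of 32.9 in E2F1 rescue at stage 8, 14.3 in WT at stage 10 and 13.6 in double MO at stage 7, against 1.40 to 5.40 elsewhere). For many of the counts, medians and named log2 changes that rest on them, values without each library are given in the same paragraph. Others stand without such values, such as the comparison of E2F1 rescue at stage 8 with WT of stage 7. The summed level of each list of adult blood (3 of 5 genes in the table), liver (4 of 4) and ovarian follicle (6 of 6) markers stayed at or under 1.94 CPM in every library. In whole embryos fewer cells of a type and less RNA per cell cannot be told apart. The libraries hold polyadenylated RNA, so a change in the amount of a message and one in its polyadenylation cannot be told apart either.

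The summed level of the 77 genes was lower in the neurula than at the 4-cell stage, and the course before stage 7 depended on the scaling. With TMM scaling the sum was 2241 ± 61.4 CPM in WT at stage 3, 2109 ± 4.45 at stage 4 and 1861 ± 22.1 at stage 5. Afterwards the sum was 1860.3 ± 24.6 CPM at stage 6, 1669 ± 25.3 at stage 7, 1355 ± 20.8 at stage 8 and 1366 ± 16.1 at stage 9. At stage 10 the sum was 1763 ± 231 CPM, from 1 library of 1926 and 1 of 1599.9, and at stage 13 it was 1330.3 ± 18.3. As a plain share of all counts in a library, the 77 genes took 0.175% ± 0.00737 (SD, n = 2) at stage 3, 0.174% ± 0.00174 at stage 5 and 0.184% ± 0.00278 at stage 7. That share was 0.152% ± 0.00250 at stage 8, 0.171% ± 0.0201 at stage 10 and 0.106% ± 0.00154 at stage 13. The decrease up to stage 7 was thus seen with TMM scaling and not in the plain share, while on both scales the level went down from stage 7 to stage 8 and was lower at stage 13 than at stage 3. The largest step between neighbouring stages with close replicates was the drop from stage 7 to stage 8, where both stage 8 libraries lay under both stage 7 libraries. Large-subunit genes made up 1341 CPM of the sum at stage 3 and 795 at stage 13, and small-subunit genes 900.0 and 535 CPM, so the TMM-scaled sum of each subunit was lower.

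**Figure D1:**
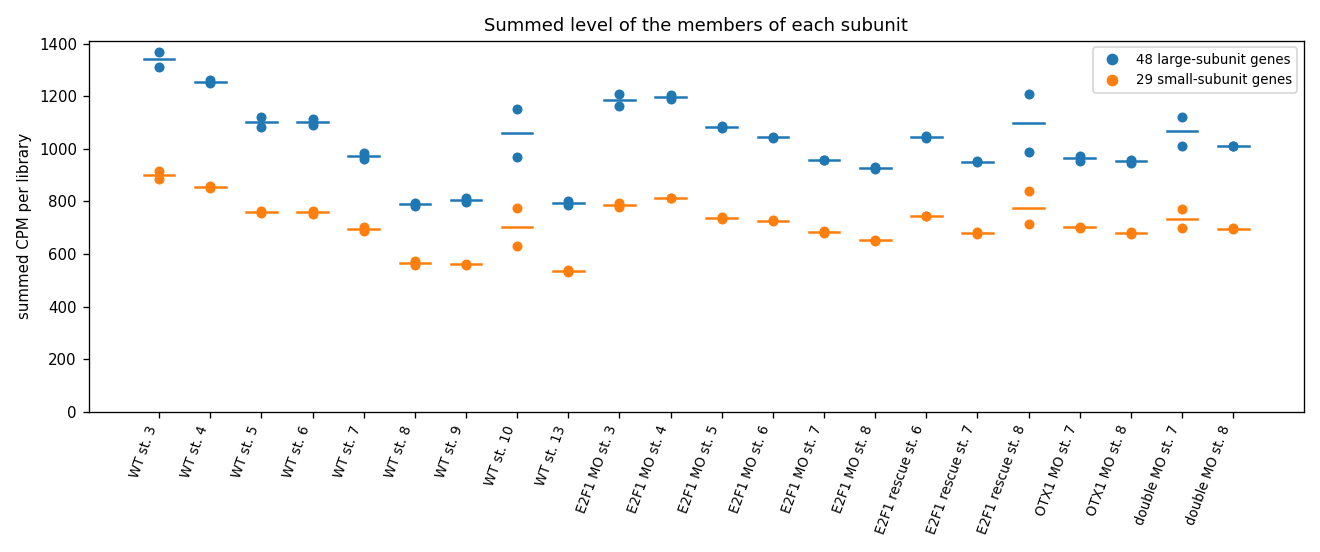
Summed level in CPM (vertical axis, from 0) of the 48 large-subunit and the 29 small-subunit genes in each of the 44 libraries (points), with the group mean (short line), by group (horizontal axis). In WT these TMM-scaled sums are highest at stage 3, and the libraries of WT at stage 10, E2F1 rescue at stage 8 and double MO at stage 7 lie furthest apart.

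Levels of single members differed widely. Per length of transcript, as RPKM (CPM per kilobase of transcript) averaged over the 9 WT stages, the highest members were mrpl16 (99.8 RPKM), mrpl43 (80.9), mrpl54 (67.4), mrpl12 (62.1) and mrps27 (59.7). The lowest were mrpl2 (1.90 RPKM), mrps28 (3.21), mrpl52 (3.51), mrpl58 (3.53) and mrpl55 (3.53). The mrpl16 and mrpl2 proteins are counterparts of bacterial core proteins of the large subunit, and the messenger RNA of the first was far above that of the second. The order among mrpl52, mrpl58 and mrpl55 is not resolved at these nearly equal levels. In WT at stage 3, 43 members stood at 10 CPM or more and 74 at 1 CPM or more.

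Between stage 3 and stage 13 the set split into members that fell and members that rose. Of the 77, 36 were higher and 33 lower at stage 13 than at stage 3, and 8 did not pass the test; 28 of the rises and 27 of the falls were at least 2-fold. In that comparison 86.5% of all tested genes were called, so a call by itself does not set these genes apart. The share of all genes that moved at least 2-fold is not given here. Between these stages the root mean square distance in log2(CPM + 0.5) was 2.81 over all tested genes and 2.12 over the members. The counts of 2-fold changes therefore do not set the members apart either. The members' median log2 change was 0.20, beside 0.49 over all tested genes, and with RLE size factors both medians were higher, at 0.45 and 0.74. Without stage 13 replicate 2 the members' median was 0.13. Small-subunit genes split into 14 higher and 14 lower, and large-subunit genes into 22 higher and 19 lower. The 2 classes also differed in their starting level, which is part of the values that define them and is given as a description. The 33 falling genes had a median of 42.8 CPM at stage 3 and 10.2 at stage 13, and their sum went from 1855 to 391.7 CPM. For the 36 rising genes the median was 4.85 CPM at stage 3 and 20.5 at stage 13, and the sum 257 and 806 CPM. Of the 77 members, 25 had their highest WT mean at stage 3, 15 at stage 10 and 23 at stage 13.

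**Figure D2:**
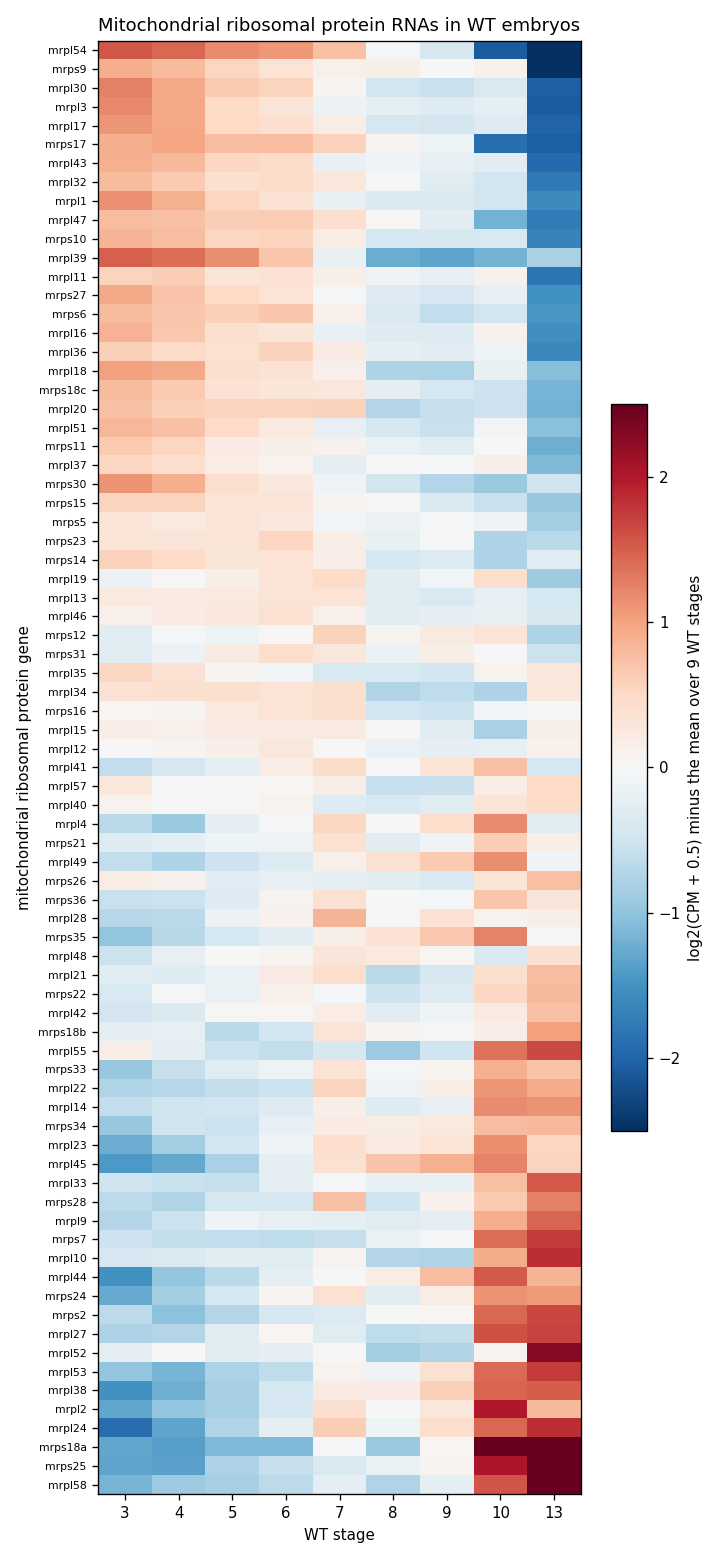
Level of each of the 77 genes (rows) at each WT stage (columns, mean of 2 libraries), as log2(CPM + 0.5) minus the gene's mean over the 9 stages (colour, red above and blue below that mean, with the colour scale ending at 2.5 either way). Rows are ordered by the change from stage 3 to stage 13, from the falls of mrpl54 and mrps9 at the top to the rises of mrps25 and mrpl58 at the bottom.

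The steepest fall was that of mrpl54, a mitochondrion-specific protein of the large subunit. Its 2 libraries were at 80.2 and 70.04 CPM at stage 3, 69.2 and 69.3 at stage 4, 60.6 and 55.0 at stage 5, 51.7 and 56.7 at stage 6 and lastly 43.2 and 41.7 at stage 7. They were then at 24.9 and 23.8 CPM at stage 8, 20.2 and 17.5 at stage 9, 6.13 and 5.05 at stage 10 and lastly 1.45 and 2.17 at stage 13. The mean went down at every stage sampled, and the stage 13 libraries lay far under the stage 3 libraries (log2 change of -5.33 ± 0.19 (SE), adjusted p = 1.30e-26). The gene for the small-subunit protein mrps9, a counterpart of a bacterial protein, fell mostly late. It stood at 70.6 and 68.7 CPM at stage 3, 39.7 and 40.4 CPM at stage 7, 41.2 and 38.1 CPM at stage 10 and lastly 5.49 and 3.10 CPM at stage 13. On the log scale most of its loss lay between stages 10 and 13 (log2 change of -3.26 ± 0.14 (SE), adjusted p = 9.22e-24), and the libraries of these stages did not overlap. The message for mrpl3, a core protein of the large subunit, was at 141 and 140.2 CPM at stage 3 and 12.2 and 15.6 CPM at stage 13 (log2 change of -3.32 ± 0.10 (SE), adjusted p = 3.60e-30). That for mrpl30, a large-subunit protein with a bacterial counterpart, was at 43.8 and 41.8 CPM and 3.63 and 4.19 CPM (log2 change of -3.44 ± 0.16 (SE), adjusted p = 1.14e-23). These 2 genes were also without overlap between the stages, as was mrps27, the member with the highest CPM at stage 3, which codes for a pentatricopeptide-repeat protein of the small subunit. The mrps27 libraries stood at 217 and 206 CPM at stage 3 and 34.6 and 41.7 CPM at stage 13 (log2 change of -2.46 ± 0.07 (SE), adjusted p = 1.55e-30). This gene overlaps another gene, ptcd2, in RefSeq's annotation of UCB_Xtro_10.0, and whether reads were counted by strand is not stated in the sources used.

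The largest rise was that of mrpl58, which codes for the ribosome-bound peptidyl-tRNA hydrolase known as ICT1 in mammals, a protein that releases stalled chains. Its libraries were at 0.962 and 0.897 CPM at stage 3, 1.05 and 1.34 at stage 4, 1.51 and 1.09 at stage 5, 1.28 and 1.75 at stage 6 and lastly 2.11 and 2.30 at stage 7. Stages 8, 9, 10 and 13 gave 1.45 and 1.33 CPM, 2.22 and 2.23, 10.4 and 7.69, and 29.01 and 28.4 CPM. The gene was low through stage 9, and both stage 13 libraries were above every earlier library (log2 change of 4.94 ± 0.24 (SE), adjusted p = 1.28e-22). A small-subunit gene, mrps25, was at 0.513 and 0.598 CPM at stage 3, 2.29 and 2.28 at stage 9, 12.4 and 8.02 at stage 10 and lastly 14.9 and 13.7 at stage 13 (log2 change of 4.67 ± 0.33 (SE), adjusted p = 8.55e-17). The mrps25 level went up both before and after stage 9. The mrpl24 gene, for a counterpart of a bacterial large-subunit assembly protein, rose earlier, with 2.12 and 1.38 CPM at stage 3, 4.10 and 4.95 at stage 5, 12.97 and 11.7 at stage 7 and lastly 29.6 and 29.5 at stage 13 (log2 change of 4.09 ± 0.21 (SE), adjusted p = 8.18e-22). Its stage 7 libraries were already well above its stage 3 libraries. In the step from stage 6 to stage 7 alone its mean went from 6.60 to 12.3 CPM (log2 change of 0.90 ± 0.16 (SE), adjusted p = 9.31e-06).

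The 3 genes of the S18 family went different ways. They are paralogs whose proteins occupy separate places in the mammalian mitochondrial ribosome, the mrps18c product being the one at the site of the bacterial protein. The mrps18a message was at 0.962 and 1.50 CPM at stage 3, 3.78 and 3.61 at stage 7, 1.76 and 1.75 at stage 8, 4.00 and 3.80 at stage 9, 40.03 and 32.5 at stage 10 and lastly 26.7 and 28.3 at stage 13. It was low up to stage 9 and high from stage 10, the largest rise of any member in a single step between the stages sampled (log2 change of 3.22 ± 0.27 (SE), adjusted p = 3.88e-14). Without stage 10 replicate 1 or 2 the log2 change was 3.06 and 3.36 for mrps18a. For mrps18b the libraries were at 11.7 and 10.6 CPM at stage 3, 16.1 and 16.5 at stage 7, 15.7 and 13.6 at stage 10 and lastly 28.1 and 26.2 at stage 13 (log2 change of 1.28 ± 0.13 (SE), adjusted p = 4.68e-12 between stages 3 and 13). The mrps18c libraries were at 39.3 and 38.0 CPM at stage 3, 27.3 and 26.9 at stage 7, 17.3 and 13.3 at stage 10 and lastly 9.53 and 9.70 at stage 13 (log2 change of -2.00 ± 0.14 (SE), adjusted p = 1.84e-17). At stage 3 mrps18c had the highest CPM of the 3 and mrps18a the lowest, and at stage 13 mrps18c was the lowest. Per length the order at stage 3 was the same, with 28.8, 13.1 and 1.57 RPKM for mrps18c, mrps18b and mrps18a.

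The steadiest member was mrpl12, whose product forms the flexible stalk of the large subunit and in mammals also binds the mitochondrial RNA polymerase. Its libraries were at 59.2 and 60.0 CPM at stage 3, 70.2 and 76.1 at stage 6, 49.6 and 53.6 at stage 9, 59.3 and 44.8 at stage 10 and lastly 63.4 and 66.1 at stage 13. The stage means spanned 0.50 on the log2(CPM + 0.5) scale, the least of the 77, and the change from stage 3 to stage 13 was not called (log2 change of 0.12 ± 0.08 (SE), adjusted p = 0.165, 95% interval -0.05 to 0.29). The other members without a call between stages 3 and 13 were mrpl4, mrpl15, mrpl34, mrpl35, mrpl41, mrpl57 and mrps16. Each of them was called in at least 1 step between neighbouring stages, as was every member. The gene for mrpl11, which sits at the base of the stalk, was not steady, with 35.6 and 35.5 CPM at stage 3, 29.2 and 22.5 at stage 10 but 5.91 and 6.83 at stage 13 (log2 change of -2.03 ± 0.14 (SE), adjusted p = 1.96e-17 in the last step). The decoding-centre protein gene mrps12, which overlaps fbxo27 in the RefSeq annotation, was highest at stage 7, with 28.6 and 26.8 CPM against 14.5 and 15.6 at stage 3 and 10.2 and 11.01 at stage 13. Its decrease from stage 3 to stage 13 (log2 change of -0.50 ± 0.14 (SE), adjusted p = 0.000816) was not called with RLE size factors (adjusted p = 0.0740) or with DESeq2 (adjusted p = 0.0915). The early-binding small-subunit gene mrps15 stood at 71.2 and 69.3 CPM at stage 3 and 24.1 and 24.7 CPM at stage 13 (log2 change of -1.52 ± 0.10 (SE), adjusted p = 1.00e-18).

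**Figure D3:**
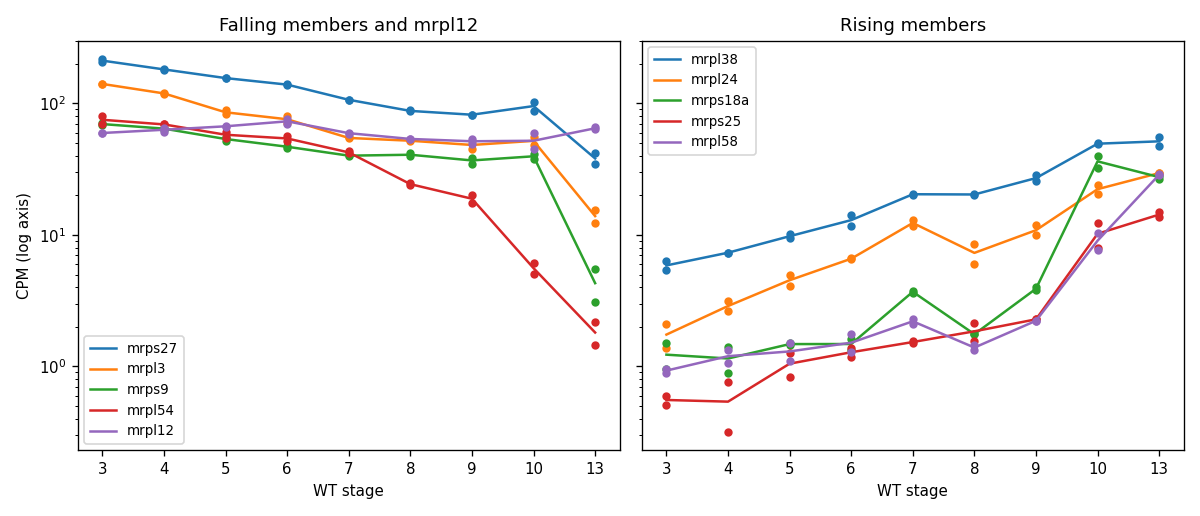
CPM in each WT library (points) and stage means (lines) on a log axis against stage, for 4 members that fell and mrpl12 (left) and for 5 members that rose (right). The mrpl54 libraries fall from 80.2 and 70.04 CPM at stage 3 to 1.45 and 2.17 at stage 13, mrpl12 stays level, and mrps18a, mrps25 and mrpl58 are highest at stage 10 or 13.

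Step by step, 3 to 26 members were called before stage 7. From stage 3 to stage 4, 3 were called (1 higher and 2 lower) against 8.81% of all genes: mrpl44 rose, and mrpl3 and mrps27 fell. None of these calls was kept in every fit that left out 1 library, which gave 0 calls without either stage 3 library or without stage 4 replicate 2 and 1 without stage 4 replicate 1, and with scaling by total counts alone the split was 2 higher and 0 lower. From stage 4 to stage 5, 26 members were called (8 higher and 18 lower) against 27.3% of all genes. The largest fall was that of mrpl18, which in mammals binds a structural RNA of the large subunit, from 90.4 and 85.0 CPM to 62.2 and 57.6 (log2 change of -0.55 ± 0.09 (SE), adjusted p = 4.65e-06). This count fell to 13 without stage 4 replicate 1, 15 without stage 4 replicate 2, 15 without stage 5 replicate 1 and 10 without stage 5 replicate 2, and total counts alone turned the split to 16 higher and 5 lower. From stage 5 to stage 6, 5 were called (4 higher and 1 lower) against 11.2% of all genes, led by mrpl45, a protein near the exit of the ribosomal tunnel, from 11.1 and 9.70 CPM to 15.8 and 15.6 (log2 change of 0.60 ± 0.13 (SE), adjusted p = 0.000968). Leaving out 1 library left 1 call (stage 5 replicate 2 or stage 6 replicate 1) or 2 calls (stage 5 replicate 1 or stage 6 replicate 2), total counts alone gave 9 higher and 0 lower, and RLE size factors 3 higher and 2 lower.

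At stage 7 calls became common in the set and in the genome alike. Between stages 6 and 7, 44 members were called (20 higher and 24 lower) against 46.9% of all genes, and with total counts alone the split was 28 higher and 15 lower. The member median was 0.03 on the log2 scale, beside 0.00 over all genes; with total counts alone the medians were 0.17 and 0.13. The member median was -0.01 without stage 7 replicate 2, the lowest of the 4 fits that left out 1 library. Among members at 5 CPM or more, mrpl22, whose product lines the exit tunnel, rose from 7.19 and 4.61 CPM to 13.4 and 13.1 (log2 change of 1.17 ± 0.17 (SE), adjusted p = 2.82e-07). Over the same step mrpl39, a mitochondrion-specific protein of the large subunit, fell from 10.99 and 10.4 CPM to 5.09 and 6.12 (log2 change of -0.93 ± 0.14 (SE), adjusted p = 4.79e-07). The libraries of the stages did not overlap for either gene; mrpl22 overlaps gemin5 in the RefSeq annotation.

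The step from stage 7 to stage 8 went nearly all one way. Of the 48 members called, 44 were lower and 4 higher at stage 8, while 44.1% of all genes were called (21.1% higher and 23.1% lower). The members' median log2 change was -0.43, beside 0.00 over all genes, and it was -0.40 for the small and -0.44 for the large subunit. The fall was largest, among members at 5 CPM or more, for mrpl20, a counterpart of a bacterial assembly protein, from 27.8 and 29.9 CPM to 11.4 and 11.1 (log2 change of -1.36 ± 0.11 (SE), adjusted p = 4.83e-14). The mrpl39 message went from 5.09 and 6.12 CPM to 2.54 and 2.30 (log2 change of -1.21 ± 0.18 (SE), adjusted p = 4.37e-07). That of mrpl21, a counterpart of a bacterial protein, went from 14.96 and 13.6 CPM to 6.43 and 6.17 (log2 change of -1.18 ± 0.15 (SE), adjusted p = 8.91e-09). The 4 that rose were mrps7 (0.44 (SE 0.12; adjusted p = 0.00295) on the log2 scale), mrpl45 (0.34), mrpl49 (0.26) and mrpl37 (0.24). Their rises were smaller than the leading falls. That of mrpl45 was not called without stage 7 replicate 2 (adjusted p = 0.0654) or stage 8 replicate 1 (0.121), and that of mrpl49 without stage 7 replicate 1 (0.122), stage 7 replicate 2 (0.150) or stage 8 replicate 1 (0.382).

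From stage 8 to stage 9, 11 members were called (7 higher and 4 lower) against 24.5% of all genes, led among those at 5 CPM or more by mrpl44, a protein with an RNase III-like fold, from 17.9 and 14.9 CPM to 23.7 and 25.8 (log2 change of 0.59 ± 0.12 (SE), adjusted p = 0.000132). Without 1 library the count was 5 (stage 8 replicate 2) or 6 (each of the other 3), and the split was 9 higher and 2 lower with total counts alone and 10 higher and 3 lower with RLE size factors. From stage 9 to stage 10, where gastrulation starts, 53 members were called (46 higher and 7 lower) against 63.2% of all genes. The members' median log2 change was 0.44 beside 0.04 over all genes. With total counts alone the split was 33 higher and 17 lower and the medians 0.20 and -0.15, so the members' median stayed above that of all genes while both shifted. Without stage 10 replicate 1 the counts were 32 higher and 10 lower and the median 0.29, and without stage 10 replicate 2 they were 49 higher and 5 lower and 0.55. After mrps18a, the largest rise was that of mrpl27, a counterpart of a bacterial protein at the peptidyl transferase centre, from 1.90 and 1.57 CPM to 11.04 and 8.46 (log2 change of 2.51 ± 0.27 (SE), adjusted p = 4.44e-11). The mrps17 message, for a protein that binds the small-subunit RNA, fell from 29.6 and 28.1 CPM to 7.76 and 8.57 (log2 change of -1.83 ± 0.13 (SE), adjusted p = 9.41e-17). Without stage 10 replicate 1 or 2 the log2 changes were 2.29 and 2.68 for mrpl27 and -1.75 and -1.89 for mrps17. Neither gene overlapped between the stages; mrpl27 overlaps a gene without a symbol in the RefSeq annotation.

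From stage 10 to stage 13, 54 members were called (18 higher and 36 lower) against 76.9% of all genes, and 24 of the falls were at least 2-fold. The root mean square distance in log2(CPM + 0.5) between these stages was 1.77 over all tested genes and 0.984 over the members. The members' median was -0.22 on the log2 scale beside 0.08 over all genes. With RLE size factors the medians were -0.02 and 0.28, and with total counts alone -0.50 and -0.18, with a split of 8 higher and 43 lower. The members' median lay under that of all genes under each of the 3 scalings. Without stage 10 replicate 1 it was -0.05, and without stage 10 replicate 2 it was -0.41. Falls were led by mrps9, described above, and by mrpl11 and mrpl3. The mrpl3 libraries stood at 55.6 and 48.3 CPM at stage 10 and 12.2 and 15.6 at stage 13 (log2 change of -1.89 ± 0.11 (SE), adjusted p = 1.19e-19). Among the rises, mrpl52, a mitochondrion-specific protein of the large subunit, went from 1.64 and 1.76 CPM to 10.1 and 8.84 (log2 change of 2.48 ± 0.34 (SE), adjusted p = 1.53e-08) and mrpl58 from 10.4 and 7.69 CPM to 29.01 and 28.4 (log2 change of 1.65 ± 0.19 (SE), adjusted p = 1.29e-10). Without stage 10 replicate 1 or 2 the log2 changes in this step were -3.20 and -3.31 for mrps9, -1.81 and -2.19 for mrpl11, -1.78 and -1.98 for mrpl3, 2.42 and 2.52 for mrpl52 and 1.90 and 1.46 for mrpl58. For each of these genes the libraries of stage 13 lay wholly to one side of those of stage 10, as they did for 61 of the 77 members. The share of all tested genes for which this held is not given here.

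The genes that work with the mitochondrial ribosome were also mixed in direction, and those of the cytosolic ribosome were not. Between stages 3 and 13, 74 of 75 tested genes for cytosolic ribosomal proteins were higher and 0 lower, with a median log2 change of 3.25. Of 75 tested nuclear genes for respiratory chain subunits, 54 were higher and 12 lower (median 1.57). The 14 tested genes for mitochondrial translation factors and messenger RNA partners gave 7 higher and 5 lower, and the 23 tested assembly genes 6 higher and 15 lower. The elongation factor gene tufm rose from 6.33 ± 0.577 CPM at stage 3 to 39.9 ± 0.458 CPM at stage 13 (log2 change of 2.66, adjusted p = 3.48e-21), and the initiation factor gene mtif2 fell from 19.8 ± 2.43 CPM to 9.19 ± 0.829 CPM (log2 change of -1.10, adjusted p = 9.11e-07). Of 6 mitochondrial ribosomal proteins or partners named outside the mrpl and mrps series, 4 rose and 2 fell. They included dap3, a GTP-binding protein of the small subunit, which rose from 1.23 ± 0.289 CPM to 22.1 ± 0.982 CPM (log2 change of 4.15, adjusted p = 3.62e-16), and ptcd3, a pentatricopeptide-repeat protein, from 2.36 ± 0.468 CPM to 67.9 ± 0.515 CPM (log2 change of 4.85, adjusted p = 3.86e-29). At the single step from stage 9 to stage 10 the medians were 2.11 for cytosolic ribosomal proteins and 0.94 for the respiratory chain, beside 0.44 for the 77 members. At the step from stage 7 to stage 8 they were -0.69, -0.64 and -0.43.

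In E2F1 MO embryos few members, and few of all genes, were called against WT up to stage 6. At stage 3 the member median was nonetheless -0.18 on the log2 scale. At stage 3, 6 members were called (1 higher and 5 lower) against 7.55% of all genes; at stage 4 there was 1, against 3.13%, and at stage 5 there was 1, against 3.24%. At stage 6 no member was called by edgeR (10 at an unadjusted p under 0.05), against 1.95% of all genes, while DESeq2 called 2. The 1 member called at stages 3, 4 and 5 was mrps21, whose product has a bacterial counterpart in the small subunit. Its libraries were at 6.71 and 6.73 CPM in E2F1 MO against 3.40 and 3.59 in WT at stage 3, 6.05 and 7.27 against 3.51 and 3.96 at stage 4, 8.21 and 6.98 against 3.43 and 4.74 at stage 5 and 5.81 and 7.17 against 3.74 and 4.38 at stage 6. Every injected library lay above both WT libraries of its stage, in 4 separate pairs of groups, and the gene was picked for its calls at 3 of these stages. At stage 7 the order was reversed, with 4.42 and 5.10 CPM in E2F1 MO against 5.85 and 6.15 in WT. At stage 8 mrps21 stood at 4.48 and 4.65 CPM in E2F1 MO against 3.84 and 3.27 in WT. The log2 change was 0.94 (SE 0.21; adjusted p = 0.00302) at stage 3, 0.83 (SE 0.21; adjusted p = 0.0124) at stage 4 and 0.88 (SE 0.20; adjusted p = 0.00413) at stage 5, and at stage 6, where the call was missed, it was 0.68 (SE 0.20; adjusted p = 0.0588). The call at stage 4 was lost without E2F1 MO replicate 2 (adjusted p = 0.148), WT replicate 1 (0.206) or WT replicate 2 (0.0710), and the call at stage 5 without E2F1 MO replicate 1 (0.0887) or WT replicate 1 (0.181). DESeq2 gave no adjusted p for mrps21 at stages 3 and 4, and the gene overlaps another gene without a symbol in the RefSeq annotation.

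The other calls at stage 3 were small falls in abundant members. The largest in CPM was that of mrps27, with 168 and 181 CPM in E2F1 MO against 217 and 206 in WT (log2 change of -0.28 ± 0.06 (SE), adjusted p = 0.00369), and mrps10, mrps5, mrpl12 and mrpl16 gave log2 changes of -0.32, -0.30, -0.27 and -0.26. The median of all 77 members was -0.18, beside 0.00 over all genes, and the summed level was 1970.2 ± 43.1 CPM in E2F1 MO and 2241 ± 61.4 in WT. This median was -0.12 with total counts alone, -0.14 without WT replicate 1 and -0.23 without WT replicate 2. With total counts alone the count of calls was 3 (1 higher and 2 lower); without E2F1 MO replicate 1 it was 1, without WT replicate 1 it was 2 and without WT replicate 2 it was 3. The adjusted p of mrps27 was 0.145 without E2F1 MO replicate 1 and 0.0725 without WT replicate 1. The summed level of 7 heat-shock and immediate early genes, most of it fos, was 335 to 357 CPM in E2F1 MO and 204 to 206 in WT at stage 3, with the same order at stages 4 to 6. At stage 6 it was 288 to 320.5 CPM in E2F1 rescue and 179.7 to 181 in WT. The part of this level in these results was not tested. E2F1 rescue embryos at stage 6 had 2 members called against WT, mrps21 (8.06 and 6.63 against 3.74 and 4.38 CPM; log2 change of 0.85 ± 0.19 (SE), adjusted p = 0.00559) and mrps7 (log2 change of 0.45 ± 0.13 (SE), adjusted p = 0.0442), where 3.01% of all genes were called. Neither was called without E2F1 rescue replicate 1, and the count was 1 without WT replicate 1 and 1 without WT replicate 2. Against E2F1 MO of the same stage edgeR called 0 members (3 at an unadjusted p under 0.05) and DESeq2 0, beside 0.131% of all genes.

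From stage 7 on the injected groups and WT differed over much of the genome, and marker genes of later stages were not at 1 level in embryos of 1 labelled stage. The mesendoderm gene mix1 stood at 0.015 CPM in WT at stage 7 and 4.32 at stage 8, and at 4.46 and 3.32 in E2F1 MO at those stages. It was 0.044 CPM in E2F1 rescue, 2.02 in OTX1 MO and 0.497 in double MO at stage 8. The neural gene sox2 was at 0.292 and 8.22 CPM in WT at stages 7 and 8, 8.73 in E2F1 MO at stage 7 and 0.499 in E2F1 rescue at stage 8. For both genes E2F1 MO at stage 7 was closer to WT at stage 8, and E2F1 rescue at stage 8 closer to WT at stage 7. The summed level of the 5 neurula markers in the table was 0.932 to 1.23 CPM in WT at stage 7 and 8.97 to 9.32 at stage 8. It was 10.2 in both libraries of E2F1 MO at stage 7 and 0.978 to 1.37 in E2F1 rescue at stage 8. Most of that sum in WT at stage 8 and in E2F1 MO at stage 7 was sox2 itself, so it adds no separate marker. The root mean square distance over all tested genes placed E2F1 rescue at stages 7 and 8 nearest to WT stage 6. It placed E2F1 MO, OTX1 MO and double MO at stage 8 nearest to WT stage 7. The same 3 groups at stage 7 were nearest to WT of their own stage. Over the members alone, E2F1 rescue at both stages was nearest to WT stage 7. For E2F1 rescue at stage 7 this distance was 0.331, against 0.393 to WT stage 6. For E2F1 rescue at stage 8 it was 0.388, against 0.506 to WT stage 6. For E2F1 MO, OTX1 MO and double MO the nearest WT stage was the same over the members. The summed heat-shock and immediate early level was 124 to 128 CPM in WT at stage 7, 102 to 103 in E2F1 MO, 229.8 to 232 in E2F1 rescue, 68.9 to 73.3 in OTX1 MO and 80.8 to 90.4 in double MO. At stage 8 it was 115 to 122 in WT, 150.4 to 157 in E2F1 MO, 196 to 232 in E2F1 rescue, 69.4 to 72.6 in OTX1 MO and 81.9 to 85.1 in double MO. This sum was thus above WT in both E2F1 rescue groups and under WT in both OTX1 MO and both double MO groups. Most of it was fos in every group. The heat-shock gene hsp70 was at 3.72 CPM in WT at stage 7 and at 2.37 to 3.33 in the injected groups. At stage 8 hsp70 was lowest in WT, at 1.95 CPM against 2.41 to 3.51 in the injected groups. The part of these differences in the results at stages 7 and 8 was not tested. Each count of members against WT is given beside that against WT of the other stage, an alternative added after the marker levels were seen. The median over all genes was 0.00 in each of these alternatives. The number of all genes called in them is given only for double MO. The other counts of this kind therefore do not set the members apart from the genome. Whether the double MO counts do so was not tested.

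At stage 7, 37 members differed between E2F1 MO and WT (13 higher and 24 lower) against 47.2% of all genes, with a member median of -0.04 on the log2 scale and 0.00 over all genes (the member median was -0.07 to -0.08 when any 1 library was left out). Against WT of stage 8 the count was 46 (37 higher and 9 lower). The largest fall at 5 CPM or more was that of mrps33, a small-subunit protein, with 5.10 and 5.17 CPM in E2F1 MO and 18.3 and 16.7 in WT (log2 change of -1.77 ± 0.14 (SE), adjusted p = 4.43e-14). The libraries were far apart, and the E2F1 MO level was also under that of WT at stage 8 (14.2 and 12.3). For mrpl22 the libraries stood at 6.16 and 5.86 CPM against 13.4 and 13.1 (log2 change of -1.14 ± 0.16 (SE), adjusted p = 1.69e-07). For mrpl20 they were at 14.3 and 17.0 CPM against 27.8 and 29.9 (log2 change of -0.88 ± 0.10 (SE), adjusted p = 3.11e-10). Both genes also fell in WT from stage 7 to stage 8, and against WT stage 8 mrpl20 was higher in E2F1 MO by 0.47 (log2). The largest rises were those of mrpl45, with 54.9 and 53.7 CPM against 25.3 and 23.9 (log2 change of 1.14 ± 0.10 (SE), adjusted p = 2.83e-13), and mrpl28. The latter codes for a large-subunit protein with a bacterial counterpart and gave 30.8 and 36.0 CPM against 14.6 and 15.9 (log2 change of 1.13 ± 0.14 (SE), adjusted p = 1.25e-08). They exceeded the level of WT at both stages, as the stage 8 libraries of WT stood at 32.6 and 29.4 for mrpl45 and 9.07 and 6.96 CPM for mrpl28. The mrps7 gene, for a protein that binds the small-subunit RNA early in assembly, stood at 17.98 and 19.9 CPM against 10.3 and 9.87 (log2 change of 0.91 ± 0.11 (SE), adjusted p = 6.13e-09). Next came mrps36, with 29.3 and 29.8 CPM against 17.3 and 15.7 (log2 change of 0.84 ± 0.14 (SE), adjusted p = 6.64e-06); despite its symbol, its mammalian product is a component of the 2-oxoglutarate dehydrogenase complex.

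With the E2F1 mRNA added, several of these genes stood nearer to WT at stage 7. E2F1 rescue gave 17 calls against WT at stage 7 (5 higher and 12 lower) beside 33.3% of all genes, and 26 calls against E2F1 MO (17 higher and 9 lower) beside 43.4%. With total counts alone the splits were 4 higher and 19 lower and 15 higher and 13 lower, and against WT of stage 8 the rescue group gave 43 calls (39 higher and 4 lower). The mrps33 libraries stood at 12.2 and 12.6 CPM in E2F1 rescue, between 5.10 and 5.17 in E2F1 MO and 18.3 and 16.7 in WT (log2 change of 1.27 ± 0.15 (SE), adjusted p = 1.32e-09, rescue against E2F1 MO). For mrpl28 they stood at 14.1 and 15.6 CPM, overlapping with WT (14.6 and 15.9) and under E2F1 MO (log2 change of -1.17 ± 0.15 (SE), adjusted p = 1.30e-08). For mrpl45 they stood at 28.3 and 26.9 CPM, above WT (25.3 and 23.9) and far under E2F1 MO (log2 change of -0.98 ± 0.10 (SE), adjusted p = 4.02e-11). Other members were apart from WT in the rescue group itself, such as mrps18b, with 7.87 and 9.23 CPM against 16.1 and 16.5 (log2 change of -0.93 ± 0.12 (SE), adjusted p = 6.17e-08). Its level in E2F1 rescue was also under that in E2F1 MO (10.2 and 10.8) and close to that of WT at stage 6 (8.82 and 9.63).

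At stage 8 the members lay mostly above WT in E2F1 MO. Of the 44 called, 37 were higher and 7 lower, beside 49.8% of all genes called (26.2% higher and 23.7% lower), with a member median of 0.32 against 0.00 over all genes. Against WT of stage 7 the count was 27 (10 higher and 17 lower) and the median -0.11, so the direction of the median turned with the WT stage. This comparison and that of WT stage 8 with stage 7 share the WT stage 8 libraries. The leading rises were those of mrpl28, at 23.1 and 21.0 CPM against 9.07 and 6.96 (log2 change of 1.45 ± 0.17 (SE), adjusted p = 1.09e-09), and mrpl24, at 17.1 and 16.7 CPM against 8.55 and 6.05 (log2 change of 1.20 ± 0.16 (SE), adjusted p = 3.42e-08). Both were above WT of stage 7 as well, whose libraries stood at 14.6 and 15.9 for mrpl28 and 12.97 and 11.7 CPM for mrpl24. The mrps24 libraries stood at 11.4 and 11.6 CPM against 5.91 and 4.42 (log2 change of 1.15 ± 0.21 (SE), adjusted p = 1.11e-05), without overlap. Falls were those of mrps33, at 8.72 and 8.40 CPM against 14.2 and 12.3 (log2 change of -0.63 ± 0.14 (SE), adjusted p = 0.000238), and mrps7, at 9.37 and 9.14 CPM against 13.9 and 13.3 (log2 change of -0.56 ± 0.12 (SE), adjusted p = 0.000194). The mrps7 gene was thus above WT at stage 7 and under it at stage 8.

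E2F1 rescue at stage 8 differed from WT in 54 members (50 higher and 4 lower), beside 52.2% of all genes, with a median of 0.55 against 0.00. Its 2 libraries summed to 2046 and 1702 CPM over the members. Without replicate 1 the counts were 39 higher and 4 lower and the median 0.39; without replicate 2 they were 57 higher and 0 lower and 0.70. Against WT of stage 7, 36 were called (29 higher and 7 lower), with a median of 0.20. The largest rise was that of mrpl39, at 9.72 and 8.62 CPM against 2.54 and 2.30 (log2 change of 1.91 ± 0.18 (SE), adjusted p = 3.39e-12). The gene mrps16, for a counterpart of a bacterial assembly protein, stood at 32.8 and 25.3 CPM against 12.96 and 10.4 (log2 change of 1.31 ± 0.13 (SE), adjusted p = 1.54e-11). Without rescue replicate 1 or 2 the log2 changes were 1.83 and 1.999 for mrpl39 and 1.11 and 1.48 for mrps16. Neither overlapped with WT of stage 8, and both were also above WT of stage 7 (5.09 and 6.12 for mrpl39 and 21.98 and 22.02 CPM for mrps16). WT of stage 6 was the nearest WT stage to this group over all tested genes. There mrpl39 stood at 10.99 and 10.4 CPM, above the rescue libraries, and mrps16 at 19.7 and 22.9 CPM, under them. Against E2F1 MO at stage 8, 36 members were called (33 higher and 3 lower) beside 39.9% of all genes, a count that was 10 without rescue replicate 1 and 45 without rescue replicate 2. The largest was mrpl54, at 56.8 and 39.5 CPM in E2F1 rescue and 22.01 and 22.5 in E2F1 MO (log2 change of 1.11 ± 0.11 (SE), adjusted p = 1.47e-10), and the rescue libraries lay on either side of those of WT at stage 7 (43.2 and 41.7). For mrps33 the rescue group stood at 17.0 and 14.4 CPM (log2 change of 0.87 ± 0.14 (SE), adjusted p = 1.75e-06) and for mrps7 at 15.4 and 16.8 CPM (log2 change of 0.80 ± 0.12 (SE), adjusted p = 6.34e-07), each above both E2F1 MO libraries. Without rescue replicate 1 or 2 the log2 changes against E2F1 MO were 0.83 and 1.35 for mrpl54, 0.76 and 0.99 for mrps33 and 0.86 and 0.73 for mrps7.

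**Figure D4:**
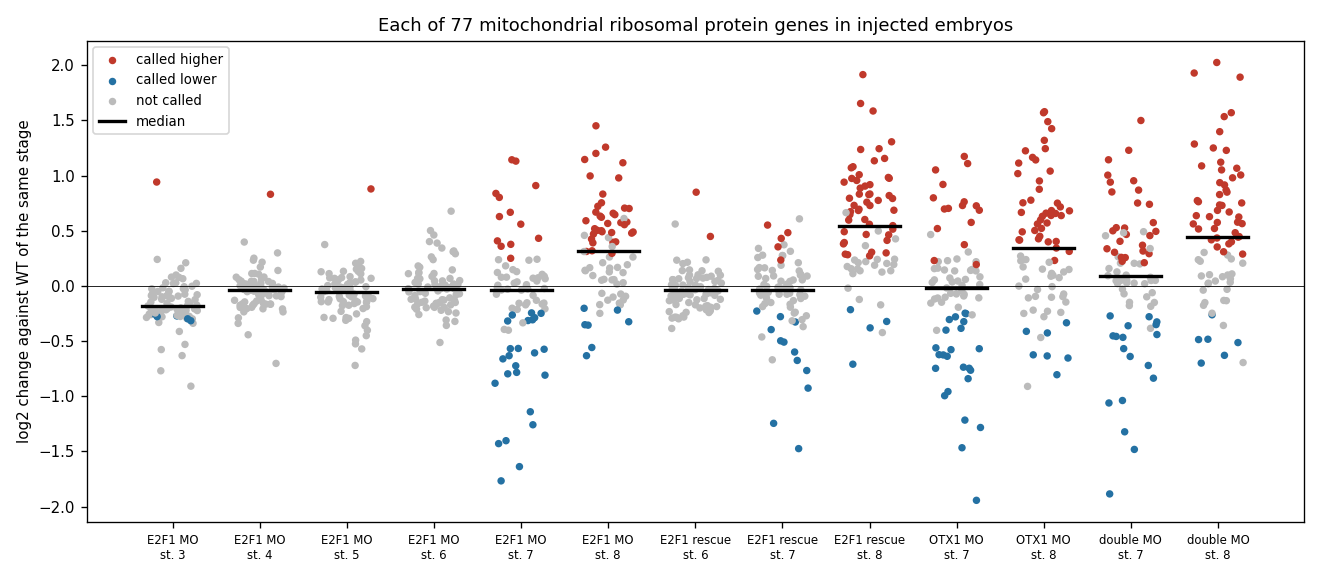
Log2 change of each of the 77 genes (points) against WT of the same labelled stage in each injected group (horizontal axis), coloured by the call at an adjusted p under 0.05, with the median as a black line. Calls are few up to stage 6, go both ways at stage 7 and lie mostly above 0 at stage 8, where the median is 0.32 in E2F1 MO, 0.55 in E2F1 rescue, 0.34 in OTX1 MO and 0.44 in double MO; all groups of a stage share its WT libraries.

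OTX1 MO embryos differed from WT in 40 members at stage 7 (16 higher and 24 lower), beside 49.2% of all genes, and in 48 at stage 8 (41 higher and 7 lower), beside 54.6%. The medians were -0.02 and 0.34, beside 0.00 over all genes at each stage, and the first was 0.02 without OTX1 MO replicate 2. Against WT of the other stage, the counts were 44 higher and 9 lower for stage 7 and 20 higher and 26 lower for stage 8, with medians of 0.34 and -0.05. Several members stood high at both stages. One was mrpl9, whose bacterial counterpart reaches out from the large subunit, at 23.5 and 25.04 CPM against 11.1 and 10.4 at stage 7 (log2 change of 1.17 ± 0.12 (SE), adjusted p = 1.18e-10). Its stage 8 libraries were at 23.8 and 21.3 against 9.12 and 11.4 CPM (log2 change of 1.14 ± 0.13 (SE), adjusted p = 9.71e-10). The mrps7 libraries stood at 21.4 and 22.02 CPM against 10.3 and 9.87 (log2 change of 1.11 ± 0.11 (SE), adjusted p = 3.74e-11) and at 21.0 and 21.3 against 13.9 and 13.3 (log2 change of 0.63 ± 0.12 (SE), adjusted p = 9.95e-06). The OTX1 MO libraries of both stages lay close together, and for each gene all 4 lay above all 4 WT libraries of stages 7 and 8. The mrps6 gene, for a small-subunit protein with a bacterial counterpart, stood at 18.3 and 19.3 CPM against 9.16 and 10.7 (log2 change of 0.92 ± 0.13 (SE), adjusted p = 1.26e-07). The small-subunit gene mrps26 stood at 54.5 and 58.9 CPM against 33.5 and 31.6 (log2 change of 0.80 ± 0.07 (SE), adjusted p = 2.88e-12). In the other direction mrpl22 stood at 5.00 and 4.58 CPM against 13.4 and 13.1 (log2 change of -1.47 ± 0.17 (SE), adjusted p = 1.05e-09) and at 4.89 and 5.29 against 7.62 and 8.41 (log2 change of -0.65 ± 0.18 (SE), adjusted p = 0.00203). All 4 mrpl22 libraries were under every WT library of both stages. At stage 8 the largest rises at 5 CPM or more were those of mrpl39 (7.66 and 6.74 CPM against 2.54 and 2.30; log2 change of 1.57 ± 0.17 (SE), adjusted p = 3.09e-10) and mrpl28 (23.1 and 20.2 against 9.07 and 6.96; log2 change of 1.42 ± 0.16 (SE), adjusted p = 9.79e-10). The mrpl49 gene, which overlaps prpf39.2 in the RefSeq annotation, was lower, at 10.6 and 11.001 CPM against 19.96 and 17.7 (log2 change of -0.81 ± 0.11 (SE), adjusted p = 4.57e-08).

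Double MO embryos gave 45 calls against WT at stage 7 (27 higher and 18 lower) beside 50.3% of all genes, and 52 at stage 8 (46 higher and 6 lower) beside 55.2%. The medians were 0.09 and 0.44, beside 0.00 over all genes. Against WT of the other stage the counts were 51 higher and 8 lower for stage 7, where 8659 of all tested genes were called. For stage 8 they were 24 higher and 21 lower, where 8507 of all tested genes were called. The member medians against WT of the other stage were 0.55 for stage 7 and 0.04 for stage 8. Against WT of its own stage, the member median of double MO at stage 7 was 0.22 without double MO replicate 1 and 0.05 without replicate 2. The largest rise at 5 CPM or more was that of mrpl27, at 4.97 and 7.78 CPM against 2.52 and 1.98 at stage 7 (log2 change of 1.50 ± 0.23 (SE), adjusted p = 4.23e-07). At stage 8 it was at 6.95 and 5.63 against 1.40 and 1.94 CPM (log2 change of 1.93 ± 0.26 (SE), adjusted p = 2.94e-08). Every double MO library was above every WT library of these stages for mrpl27. The mrpl9 libraries stood at 23.3 and 27.1 CPM (log2 change of 1.23 ± 0.12 (SE), adjusted p = 3.80e-11), those of mrps7 at 20.4 and 24.1 CPM (log2 change of 1.14 ± 0.11 (SE), adjusted p = 1.85e-11) and those of mrpl22 at 4.42 and 6.19 CPM (log2 change of -1.32 ± 0.17 (SE), adjusted p = 1.07e-08). Without double MO replicate 1 or 2 the log2 changes at stage 7 were 1.79 and 1.14 for mrpl27, 1.34 and 1.11 for mrpl9, 1.26 and 1.02 for mrps7 and -1.10 and -1.58 for mrpl22. For mrpl24 at stage 8 the libraries stood at 21.9 and 21.7 CPM against 8.55 and 6.05 (log2 change of 1.57 ± 0.16 (SE), adjusted p = 2.28e-11).

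Set against the single morpholinos, double MO embryos were close to OTX1 MO and far from E2F1 MO. Against OTX1 MO, 3 members were called at stage 7 and 1 at stage 8, beside 3.74% and 2.68% of all genes. Against E2F1 MO there were 37 at stage 7 (30 higher and 7 lower) and 34 at stage 8 (26 higher and 8 lower), beside 44.6% and 43.2%. These comparisons share the double MO libraries, and the difference between them was not tested. The gene called against OTX1 MO at both stages was mrpl15, a counterpart of a bacterial core protein, at 24.7 and 28.4 CPM against 18.1 and 17.5 at stage 7 (log2 change of 0.58 ± 0.11 (SE), adjusted p = 0.000453). Its stage 8 values were 26.9 and 26.8 against 19.4 and 18.2 CPM (log2 change of 0.51 ± 0.10 (SE), adjusted p = 0.00114). E2F1 MO embryos, by the side of these, had 25.3 and 24.0 CPM of mrpl15 at stage 7 and 23.6 and 23.2 at stage 8. The libraries of double MO and OTX1 MO did not overlap for mrpl15 at either stage. The other calls at stage 7 were mrpl24 (0.52 on the log2 scale) and mrpl38 (0.38), which were not called without double MO replicate 2 (adjusted p = 0.547 and 0.753) or without either OTX1 MO library. The stage 7 count was 7 without double MO replicate 1 and 1 without double MO replicate 2, OTX1 MO replicate 1 or OTX1 MO replicate 2. The median log2 difference between double MO and OTX1 MO was 0.12 at stage 7 and 0.14 at stage 8, beside 0.00 over all genes. At stage 7 it was 0.20 without double MO replicate 1 and 0.04 without double MO replicate 2. At stage 8 it was 0.08 without double MO replicate 2 and 0.07 without OTX1 MO replicate 2. The log2 change of mrpl15 at stage 7 without double MO replicate 1 or 2 was 0.67 and 0.47 for mrpl15.

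Against E2F1 MO the leading members included mrps26, mrps7 and mrps6, which also stood high in OTX1 MO. At stage 7 mrps26 stood at 53.1 and 55.6 CPM in double MO and 27.7 and 27.1 in E2F1 MO (log2 change of 0.99 ± 0.07 (SE), adjusted p = 1.24e-14). The values of mrpl27 in these groups were 4.97 and 7.78 and 1.24 and 1.61 CPM (log2 change of 2.16 ± 0.24 (SE), adjusted p = 8.26e-10). At stage 8 mrps7 stood at 24.3 and 24.2 CPM and 9.37 and 9.14 (log2 change of 1.39 ± 0.11 (SE), adjusted p = 1.41e-13), and mrps6 at 18.8 and 17.8 CPM and 8.40 and 8.86 (log2 change of 1.09 ± 0.13 (SE), adjusted p = 6.48e-09). None of these pairs overlapped. In the other direction mrpl28 at stage 7 was at 13.9 and 17.7 CPM in double MO, overlapping with WT, and at 30.8 and 36.0 in E2F1 MO (log2 change of -1.08 ± 0.14 (SE), adjusted p = 5.04e-08). The mrps27 gene was lower in double MO at both stages, with 68.4 and 68.4 CPM against 103 and 104 at stage 7 (log2 change of -0.60 ± 0.06 (SE), adjusted p = 2.37e-10) and 61.6 and 61.3 against 90.4 and 91.5 at stage 8 (log2 change of -0.57 ± 0.06 (SE), adjusted p = 1.32e-09). WT stood at 107 and 107 and 87.1 and 88.4 CPM of mrps27 at these stages, and OTX1 MO at 69.7 and 68.6 and 67.5 and 63.0. Without double MO replicate 1 or 2 the log2 changes at stage 7 were 1.02 and 0.95 for mrps26, 2.45 and 1.80 for mrpl27, -0.91 and -1.27 for mrpl28 and -0.60 and -0.60 for mrps27. The count of calls against E2F1 MO was 24 at stage 7 without E2F1 MO replicate 1, 38 without double MO replicate 1 and 25 without double MO replicate 2, and at stage 8 it was 22 without either E2F1 MO library or without double MO replicate 2.

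**Figure D5:**
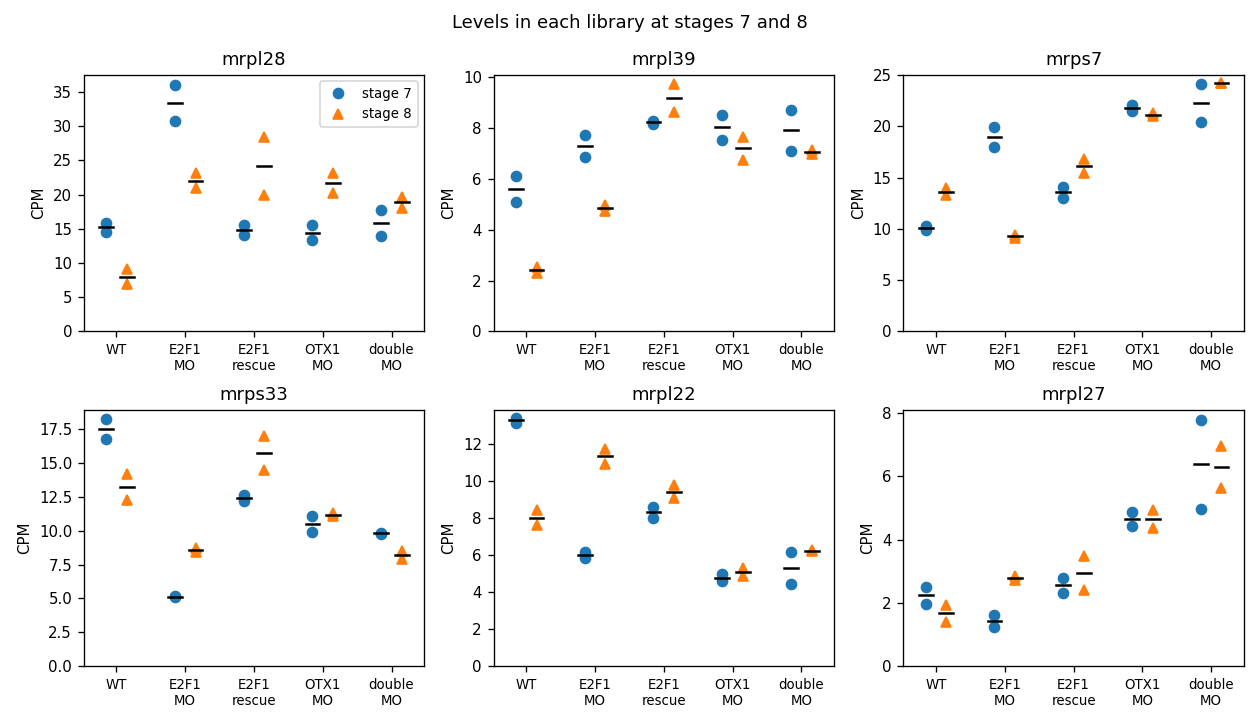
CPM (vertical axis, from 0) of 6 members in each library at stages 7 (circles) and 8 (triangles) for WT and the injected groups, with group means as black lines. E2F1 MO stands apart for mrpl28 and mrps33 at stage 7, OTX1 MO and double MO stand together for mrps7, mrpl22 and mrpl27, and mrpl39 is lowest in WT at stage 8. At stage 7 E2F1 MO is also under WT for mrpl22 and above WT for mrps7.

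Whether a group's difference from WT changed between stages was tested directly in the same fit. The E2F1 MO effect at stage 6 did not differ from that at stage 3 for any member by edgeR (3 at an unadjusted p under 0.05) or DESeq2, beside 0.0623% of all genes called. Between stages 6 and 7 it differed for 23 members (9 higher and 14 lower at stage 7), beside 29.5% of all genes. Between stages 7 and 8 it differed for 37 (34 higher and 3 lower at stage 8), beside 39.0%, with a median of 0.36 against 0.00 over all genes. The differences for mrps7 (log2 change of -1.47 ± 0.17 (SE), adjusted p = 1.48e-09) and mrpl22 (log2 change of 1.64 ± 0.24 (SE), adjusted p = 3.02e-07) were of opposite sign: E2F1 MO had more mrps7 than WT at stage 7 and less at stage 8, and less mrpl22 at stage 7 and more at stage 8. The OTX1 MO effect differed between stages 7 and 8 for 31 members (29 higher and 2 lower at stage 8), beside 31.8% of all genes, and the double MO effect for 30 (29 higher and 1 lower), beside 32.1%. The last count was 19 without double MO replicate 1 of stage 7 or WT replicate 2 of stage 8. These 3 tests between stages 7 and 8 share the 4 WT libraries, so they are not independent of each other.

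The cytosolic ribosomal protein and respiratory chain genes were mostly lower in E2F1 MO than in WT of stage 7, and not against WT of stage 8. In E2F1 MO at stage 7, 54 of 75 cytosolic ribosomal protein genes were lower and 5 higher (median -0.57), and 47 of 75 respiratory chain genes were lower and 8 higher (median -0.51). Against WT of stage 8 they were 21 lower and 26 higher (median 0.05) and 13 lower and 24 higher (median 0.12). The 77 members had a median of -0.04 against WT of stage 7 and 0.24 against WT of stage 8. At stage 8 the medians in E2F1 MO were 0.45, 0.25 and 0.32 for the 3 lists, and against WT of stage 7 they were -0.36, -0.32 and -0.11. Among the 6 genes for mitochondrial transcription, polrmt, the mitochondrial RNA polymerase, stood at 34.1 ± 1.09 CPM in E2F1 MO and 11.7 ± 0.656 CPM in WT at stage 8 (log2 change of 1.54, adjusted p = 2.41e-14). In OTX1 MO at stage 8 tfam, which packages mitochondrial DNA and starts its transcription, stood at 51.2 ± 2.31 CPM against 20.8 ± 1.87 CPM (log2 change of 1.30, adjusted p = 1.62e-13). Among translation factors mtif2 was lower there, at 27.3 ± 1.03 CPM against 86.6 ± 0.329 CPM (log2 change of -1.66, adjusted p = 1.04e-13). The ribosome recycling factor gene mrrf was higher, at 9.00 ± 0.212 CPM against 3.91 ± 0.979 CPM (log2 change of 1.22, adjusted p = 3.80e-08). The small-subunit gene dap3 was lower in OTX1 MO at stage 8, at 0.944 ± 0.153 CPM against 2.94 ± 0.390 CPM (log2 change of -1.65, adjusted p = 2.97e-05). By contrast gadd45gip1, a large-subunit protein, was higher, at 55.7 ± 0.856 CPM against 22.1 ± 1.94 CPM (log2 change of 1.33, adjusted p = 3.31e-15). Against WT of stage 7 the log2 change of polrmt in E2F1 MO at stage 8 was 0.74 (adjusted p = 2.10e-07). In OTX1 MO at stage 8, set against WT of stage 7, it was 1.01 (adjusted p = 3.55e-11) for tfam, -0.82 (adjusted p = 5.46e-07) for mtif2 and 0.42 (adjusted p = 0.0123) for mrrf. For dap3 it was -1.90 (adjusted p = 5.90e-07) and for gadd45gip1 0.68 (adjusted p = 1.85e-08).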

How the data were processed

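Polyadenylated RNA of embryos was sequenced with a stranded kit, per the labels' protocols. The submitters' processing notes name fastp, STAR 2.7.0e, featureCounts 2.0.1 and deepTools; neither the genome build nor whether reads were counted by strand is given there, and coordinates are left out. The deposited table holds raw counts per gene, with gene lengths, from the authors, and no count was changed. From these counts edgeR 4.0.16 (R 4.3.3) gave TMM factors, CPM, RPKM and 1 quasi-likelihood fit of all 44 libraries over 22 groups, after filterByExpr (minimum count of 10) left 16064 genes. Calls are Benjamini-Hochberg adjusted p under 0.05 over all tested genes, for 29 comparisons and 5 differences of effects. Fits that left out 1 library reused the trended dispersion and gene set of the full fit. Alternatives were RLE factors, total counts alone, DESeq2 1.42.0 on the same libraries, no filter, only the 2 groups compared, a replicate block and, added after seeing the data, WT of the other stage. Named genes were the 3 largest called rises and falls per comparison at 5 CPM or more without overlap between groups, the 5 highest and lowest by RPKM, the members with the largest and smallest range over WT stages, repeated calls and a list of ribosomal sites; values of these genes in further comparisons, and other genes, were added after their values were seen. The members and lists were chosen with earlier results of these data known. Symbols matched the RefSeq table of assembly UCB_Xtro_10.0 for 77 of 77 members, 7 of which overlap another gene there, so their counts are uncertain. The fit was tested on simulated data with known changes. These were drawn with the same spread for every gene and library, so the test does not cover the groups whose replicates lay furthest apart.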

Additional observations from a re-analysis of the deposited data

Results flagged for a closer look

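Differences between stages in the effect of an injection were tested as contrasts of effects in edgeR, with p-values adjusted over all genes. In 4 of these contrasts 23, 37, 31 and 30 members were called, beside 29.5%, 39.0%, 31.8% and 32.1% of all tested genes. Whether these counts set the members apart was not tested. Only the 2 largest differences of each, among members at 5 CPM or more in a group of the contrast, are given here. They fall on 5 members. The E2F1 MO effect on mrps33 was lower at stage 7 than at stage 6 (log2 change of -1.59 ± 0.20 (SE), adjusted p = 3.37e-08), and so was that on mrpl22 (log2 change of -1.40 ± 0.25 (SE), adjusted p = 2.44e-05). From stage 7 to stage 8 the E2F1 MO effect on mrpl22 was higher (log2 change of 1.64 ± 0.24 (SE), adjusted p = 3.02e-07), as was that on mrpl20 (log2 change of 1.53 ± 0.15 (SE), adjusted p = 1.94e-11). The OTX1 MO effect on mrpl28 (log2 change of 1.50 ± 0.22 (SE), adjusted p = 9.58e-07) and mrpl20 (log2 change of 1.29 ± 0.14 (SE), adjusted p = 1.78e-09) was higher at stage 8 than at stage 7. The double MO effect was higher at stage 8 for mrpl21 (log2 change of 1.21 ± 0.20 (SE), adjusted p = 5.89e-06) and mrpl28 (log2 change of 1.18 ± 0.22 (SE), adjusted p = 5.52e-05). Injected levels rose as well for mrpl22 in E2F1 MO, from 6.16 and 5.86 to 10.9 and 11.7 CPM. Those of mrpl28 went from 15.5 and 13.3 to 23.1 and 20.2 CPM in OTX1 MO. In double MO they went from 13.9 and 17.7 to 19.6 and 18.1 CPM. Each difference of effects had the same direction in every fit that left out 1 library. No log2 change of a named gene was reversed in such a fit, so the kept direction is no further support. Groups of 2 libraries are too small to test a single library as an outlier.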

How the results depend on the processing

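Leaving out each library in turn gave 0 to 1 called members for WT stage 4 against 3, 10 to 15 for 5 against 4, 1 to 2 for 6 against 5 and 5 to 6 for 9 against 8. It gave 1 to 6 for E2F1 MO at stage 3, 0 to 1 at stage 4, 0 to 1 at stage 5, 0 to 2 for E2F1 rescue against WT at stage 6, 10 to 45 for E2F1 rescue against E2F1 MO at stage 8, 24 to 38 and 22 to 23 for double MO against E2F1 MO at stages 7 and 8, 1 to 7 for double MO against OTX1 MO at stage 7 and 19 to 30 for the change of the double MO effect. DESeq2 called 6 members for WT stage 4 against 3, 8 for 6 against 5, 2 and 2 for E2F1 MO at stages 4 and 6, and 6 and 2 for double MO against OTX1 MO at stages 7 and 8. Fits on only the 2 groups compared gave 7, 10 and 17 for the WT steps from stages 3, 5 and 8, 3 and 4 for E2F1 MO at stages 3 and 4, 1 and 40 for E2F1 rescue against WT at stages 6 and 7, 41 and 11 against E2F1 MO at stages 7 and 8, and 1 and 5 for double MO against OTX1 MO. Total counts alone gave 9 for WT stage 6 against 5, 3 and 1 for E2F1 MO at stages 3 and 6 and 1 for E2F1 rescue at stage 6; no filter on low counts gave 1 for the last and 1 for WT stage 4 against 3. The replicate block gave 3 calls for double MO against OTX1 MO at stage 8 and moved no other count by over 1.5 times; same-numbered libraries did not deviate together in every pair (correlations of -0.05 to 0.11), so the numbers were not taken to pair them. In place of WT of the same stage, WT of the other stage gave 27 calls for E2F1 MO at stage 8 and 43 for E2F1 rescue at stage 7. It also turned the sign of 25 log2 changes of named genes, and no other alternative turned one. For stage 7 against WT stage 8 these were, in E2F1 MO, mrpl20 (0.47), mrpl58 (0.0508), mrps12 (0.24) and mrps28 (0.0764). In E2F1 rescue they were mrpl10 (0.13), mrpl22 (0.0534), mrps12 (0.13) and mrps7 (-0.00675), in OTX1 MO mrpl54 (0.0540), mrps18a (0.11) and mrps28 (0.20), and in double MO mrpl54 (0.36), mrps18a (0.00648) and mrps18c (0.0766). For stage 8 against WT stage 7 they were, in E2F1 MO, mrpl18 (-0.32), mrpl19 (-0.10), mrpl20 (-0.71) and mrps18c (-0.23). In E2F1 rescue they were mrpl37 (0.0246) and mrps18c (-0.0159), in OTX1 MO mrpl18 (-0.14), mrpl19 (-0.0747) and mrpl20 (-0.32), and in double MO mrpl18 (-0.16) and mrpl20 (-0.35). For double MO against E2F1 MO at stages 7 and 8, the number of all genes called also fell without each library. The number of all genes called is not given beside these counts, so their changes do not set the members apart from the genome. The cause of the changes in counts and signs was not tested. Each fit that left out 1 library also had fewer libraries. Depth limited the low members most, and 2 libraries a group leave small changes undetected.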

Other observations

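Genes of the pathway that stand outside the mrpl and mrps series also moved, and those given here were chosen after their values were seen. In WT tefm, the elongation factor of mitochondrial transcription, rose from 0.342 ± 0.0608 CPM at stage 3 to 27.7 ± 0.496 CPM at stage 13 (log2 change of 6.32, adjusted p = 6.22e-24, edgeR), and polrmt rose from 8.37 ± 0.591 CPM to 37.2 ± 3.36 CPM (log2 change of 2.15, adjusted p = 5.87e-19, edgeR). The release factor gene mtrf1l fell from 111 ± 2.81 CPM to 6.86 ± 1.05 CPM (log2 change of -4.00, adjusted p = 3.30e-32, edgeR), guf1, a translational GTPase, from 83.8 ± 0.262 CPM to 5.77 ± 0.395 CPM (log2 change of -3.85, adjusted p = 8.25e-33, edgeR), and gadd45gip1 from 28.4 ± 3.33 CPM to 5.44 ± 0.666 CPM (log2 change of -2.40, adjusted p = 2.12e-19, edgeR). In double MO embryos at stage 8 polrmt stood at 37.9 ± 0.189 CPM against 11.7 ± 0.656 CPM in WT (log2 change of 1.69, adjusted p = 6.26e-16, edgeR), mtif2 at 28.5 ± 1.32 CPM against 86.6 ± 0.329 CPM (log2 change of -1.60, adjusted p = 2.28e-13, edgeR) and gadd45gip1 at 62.0 ± 2.93 CPM against 22.1 ± 1.94 CPM (log2 change of 1.49, adjusted p = 1.08e-16, edgeR). Against WT of stage 7 the log2 changes in these embryos were 0.89 (adjusted p = 1.57e-09) for polrmt, -0.76 (adjusted p = 1.98e-06) for mtif2 and 0.84 (adjusted p = 1.53e-10) for gadd45gip1.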
